A study of Mus musculus with 8 samples.

Results

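Genes of mitosis were compared between primitive erythroid precursors, which are the first red cell precursors of the embryo, and epithelial cells captured from the same yolk sacs. A fixed list of 35 genes that act when a cell divides was taken, and every probe set annotated to one of them was read. The arrays carried 58 such probe sets for 33 of the 35 genes, of 12393 genes named on the arrays. Ccnb1 and Cdca8 had no probe set annotated to them here and were not analysed. Both groups came from FVB/N mice at embryonic day 9.5, and the labels give no treatment or genetic change for either. The samples were 4 erythroid and 4 epithelial captures, cut by laser from frozen sections and joined in 4 pairs by the slides they came from, with 2 to 4 yolk sacs of 2 litters pooled in each. RNA of each capture, 10 to 39 ng, was amplified and put on 1 Affymetrix 430 A 2.0 array. About 2 to 3 laser pulses were used for an erythroid cell and 1 for an epithelial cell. The pairs are the replicates, and each is a pool of yolk sacs.

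Cell division is run by cyclins and the kinases they switch on, which build up before mitosis and are destroyed at its end. Condensed chromosomes attach to the spindle through the kinetochore, a protein assembly on the centromere, and a checkpoint holds the cell until all are attached. The anaphase promoting complex then tags cyclin B and other proteins for destruction, the chromosomes part and the cell divides. Primitive erythroid precursors enter the bloodstream as nucleated cells and go on dividing there, while the visceral endoderm, the epithelium of the yolk sac, grows with the embryo. Many of these genes are switched on together late in the cell cycle, through promoter elements known as the cell cycle genes homology region and the CCAAT box.

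Because the genes are known for this shared control, their promoters were read as well as their expression. RefSeq promoters of the mouse build GRCm38.p6, from 250 bases before to 50 bases after the start of transcription, were matched by symbol for 27 of the 33 genes. The homology region was searched as TTTGAA or TTCGAA and the CCAAT box as CCAAT, on both strands. Matches of the 2 motifs can overlap by a shared end letter, and they did so in 0 of the 29 promoters of these genes. The homology region stood in the promoters of 22 of the 27 mitosis genes (81.5%). It stood in 16.2% of the 5879 genes tested on the arrays that had a promoter, and in 21.7% of all 27025 genes with a promoter. CCAAT stood in 24 of the mitosis genes (88.9%), against 43.6% and 41.1%. Both stood in 22 (81.5%), against 6.67% and 8.61%. These are matches of letters and not sites shown to be bound. The promoters below are those of the 3 genes whose expression differed between the captures (Mki67, Top2a and Cdc25b), and of Cdc20 and Ccnb2. The last 2 held both motifs, and their brightest probe sets did not pass the test. A dimmer probe set of Cdc20 was called lower in the erythroid captures. Both motifs are in capitals.
Mki67: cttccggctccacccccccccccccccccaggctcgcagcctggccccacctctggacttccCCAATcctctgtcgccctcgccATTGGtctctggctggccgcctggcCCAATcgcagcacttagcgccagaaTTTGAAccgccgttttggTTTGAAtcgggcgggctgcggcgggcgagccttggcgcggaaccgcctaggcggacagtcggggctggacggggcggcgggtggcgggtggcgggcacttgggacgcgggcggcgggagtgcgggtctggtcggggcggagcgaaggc
Top2a: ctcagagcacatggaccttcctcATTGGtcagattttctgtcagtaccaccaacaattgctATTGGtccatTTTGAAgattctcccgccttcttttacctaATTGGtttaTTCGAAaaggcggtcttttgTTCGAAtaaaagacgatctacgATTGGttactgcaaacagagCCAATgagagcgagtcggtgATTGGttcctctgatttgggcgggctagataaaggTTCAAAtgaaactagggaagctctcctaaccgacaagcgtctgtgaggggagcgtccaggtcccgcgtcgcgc
Cdc25b: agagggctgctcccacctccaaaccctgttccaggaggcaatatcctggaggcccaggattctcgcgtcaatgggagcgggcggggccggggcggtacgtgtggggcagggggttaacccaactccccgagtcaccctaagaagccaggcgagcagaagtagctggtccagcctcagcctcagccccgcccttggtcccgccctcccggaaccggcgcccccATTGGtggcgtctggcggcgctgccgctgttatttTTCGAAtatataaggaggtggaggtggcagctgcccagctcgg
Cdc20: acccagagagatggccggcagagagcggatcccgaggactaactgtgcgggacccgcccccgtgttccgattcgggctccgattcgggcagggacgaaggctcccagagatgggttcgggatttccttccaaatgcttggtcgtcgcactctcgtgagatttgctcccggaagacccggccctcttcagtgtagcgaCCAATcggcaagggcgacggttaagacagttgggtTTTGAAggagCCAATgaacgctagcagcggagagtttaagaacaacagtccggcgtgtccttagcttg
Ccnb2: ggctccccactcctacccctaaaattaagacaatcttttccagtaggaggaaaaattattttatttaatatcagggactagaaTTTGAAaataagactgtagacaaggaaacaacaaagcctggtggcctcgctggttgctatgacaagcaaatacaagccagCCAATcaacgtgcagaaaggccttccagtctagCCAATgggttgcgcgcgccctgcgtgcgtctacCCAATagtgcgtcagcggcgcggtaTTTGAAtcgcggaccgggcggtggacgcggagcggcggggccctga
The windows lie at chr7:135716330-135716629 on the minus strand for Mki67, chr11:99024140-99024439 on the minus strand for Top2a, chr2:131186698-131186997 on the plus strand for Cdc25b, chr4:118437294-118437593 on the minus strand for Cdc20 and chr9:70421505-70421804 on the minus strand for Ccnb2. Top2a held 4 homology region matches and 6 CCAAT matches, Mki67 held 2 and 3, Ccnb2 held 2 and 3, Cdc20 held 1 and 2, and Cdc25b held 1 and 1. Among genes not called, Birc5, Mad2l1 and Nusap1 held neither motif, and Cenpe and Nek2 held CCAAT without the homology region.

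The values are deposited signals, in the linear units of the array software. Differences are erythroid minus epithelial on the log2 scale after quantile normalisation, with the standard error (SE) of a limma fit over 4 pairs. The fit moderates this SE with all probe sets tested, so it does not measure the spread of the 4 pairs alone. A difference is called where its Benjamini-Hochberg adjusted p over all 11449 probe sets tested lies under 0.05. A gene is read from its brightest tested probe set. Most mitosis genes were detected in both kinds of capture: 29 of 33 lay above the background level of the array on all 8 arrays. Of all 7191 genes tested, 5337 did so. The exceptions were Cdc25b and Plk1, each below it on 1 epithelial array, Kif20a on 1 erythroid array, and Cdc25c on 2 erythroid and 1 epithelial array. In captures of many cells, fewer dividing cells and less RNA per dividing cell cannot be told apart.

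Of the 33 genes, 3 were called higher in the erythroid captures, Mki67, Top2a and Cdc25b, and 0 lower. Across all 7191 genes tested, 6.02% were called higher and 8.87% lower. The share of mitosis genes called higher was 3 of 33, so it stood near that of all genes. The median difference of the 33 genes was 0.15, against -0.01 for all genes. With arrays centred on the median these became -0.047 and -0.14, so the sign of the median depended on the scaling. The median lay at 0.11, 0.05, 0.13 and 0.16 in pairs 1 to 4. The 95% interval of the difference lay within 2-fold in either direction for 23 of the 33 genes, against 52.5% of all genes. At an unadjusted p under 0.05, 5 of the 33 genes differed, against 31.1% of all genes, and the added genes were Cenpe and Tpx2. A sign shared by all 4 pairs was seen in 14 genes, 11 higher and 3 lower, where 17.9% and 20.3% of all genes had such a sign.

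**Figure D1:**
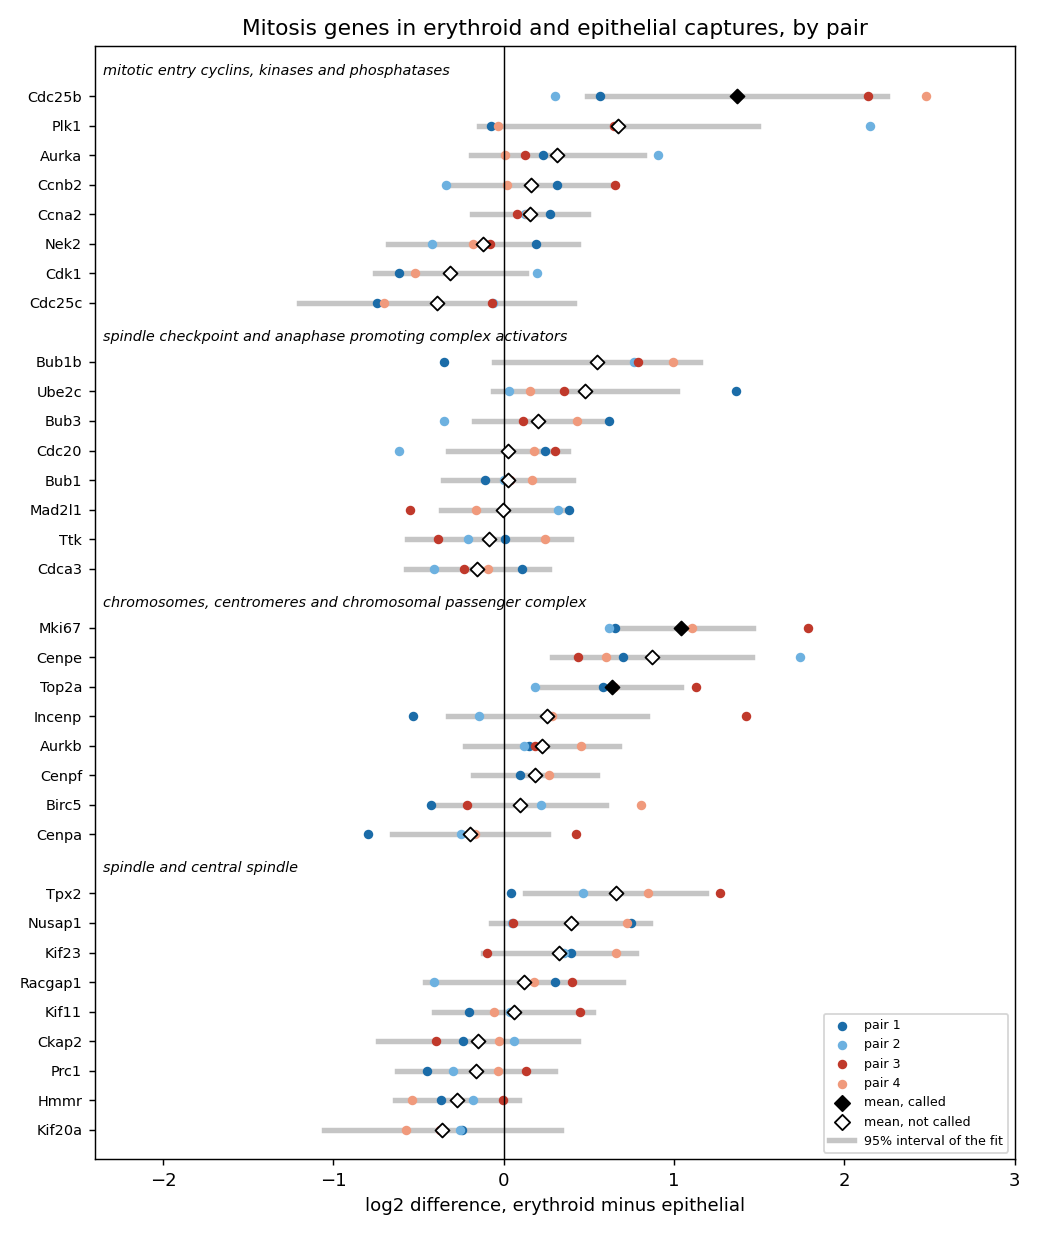
The log2 difference, erythroid minus epithelial (horizontal axis), is plotted for each of 33 mitosis genes (vertical axis, grouped by role), with a point for each of the 4 pairs, a diamond for the mean and a grey bar for the 95% interval of the fit. The 3 filled diamonds (Cdc25b, Mki67 and Top2a) are the genes called, and all 3 lie right of 0.

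Genes of chromosomes, centromeres and the chromosomal passenger complex held 2 of the 3 calls. Of 8 measured, 2 were higher and 0 lower, with a median of 0.24, where 6.02% of all genes were called higher and 8.87% lower. Mki67 encodes the Ki-67 protein that coats chromosomes in mitosis and is the usual mark of dividing cells. Its signal was 6581, 8405, 9437 and 5100 in the erythroid captures of pairs 1 to 4, and 4364, 4888, 2649 and 2762 in the epithelial captures. Every erythroid value lay above every epithelial value. The difference was 1.04 ± 0.19 (SE, n = 4 pairs, limma adjusted p = 0.00643), with an interval from 0.62 to 1.47. The call held when any pair was left out and ended in a fit without a variance trend (adjusted p = 0.0694).

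Top2a encodes the topoisomerase that untangles sister chromosomes before they part. Its signal was 3416, 2435, 2884 and 2912 in the erythroid captures and 2260, 2142, 1381 and 2062 in the epithelial captures. The groups did not overlap, and the erythroid value of pair 2 stood closest to the epithelial range. The difference was 0.64 ± 0.18 (SE, n = 4 pairs, limma adjusted p = 0.0448), just inside the threshold. The adjusted p was 0.093 when replicate 1 was left out, 0.171 for replicate 3 and 0.151 for replicate 4, so the call was lost each time. Other settings that ended it were the deposited scaling (0.0514), centring on the 75th percentile (0.0711), centring on the median (0.288), no pair term (0.149) and no variance trend (0.131).

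Cenpe, a kinesin that carries chromosomes to the middle of the spindle, lay just outside the threshold. It had signals of 768.5, 564.8, 425.4 and 324.5 in the erythroid captures, and 425.9, 197.0, 286.0 and 170.7 in the epithelial captures. It was higher in the erythroid capture of each pair, although the groups overlapped. The difference was 0.87 ± 0.27 (SE, n = 4 pairs, limma adjusted p = 0.053). It passed with the deposited scaling (adjusted p = 0.0266) and in 4 other settings over all 4 pairs, among them centring on the 75th percentile (0.0345) and the stricter filter (0.0361).

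The passenger complex corrects faulty attachments of chromosomes and moves to the middle of the spindle for the cut. Its kinase Aurkb differed by 0.23 ± 0.20, with signals of 437.8 to 830.2 in the erythroid captures and 362.3 to 616.4 in the epithelial captures. Birc5, its subunit survivin, differed by 0.10 ± 0.23. The scaffold Incenp differed by 0.26 ± 0.26, with signals of 4414, 4607, 3632 and 2906 in the erythroid captures and 6949, 4886, 1423 and 2597 in the epithelial captures. The erythroid value of Incenp was the lower one in pairs 1 and 2 and the higher one in pairs 3 and 4. Cenpf, a large protein of the outer kinetochore, differed by 0.18 ± 0.16 and Cenpa, the histone that marks centromeres, by -0.20 ± 0.21. None of these 5 genes passed the test (limma adjusted p = 0.499 to 0.815).

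**Figure D2:**
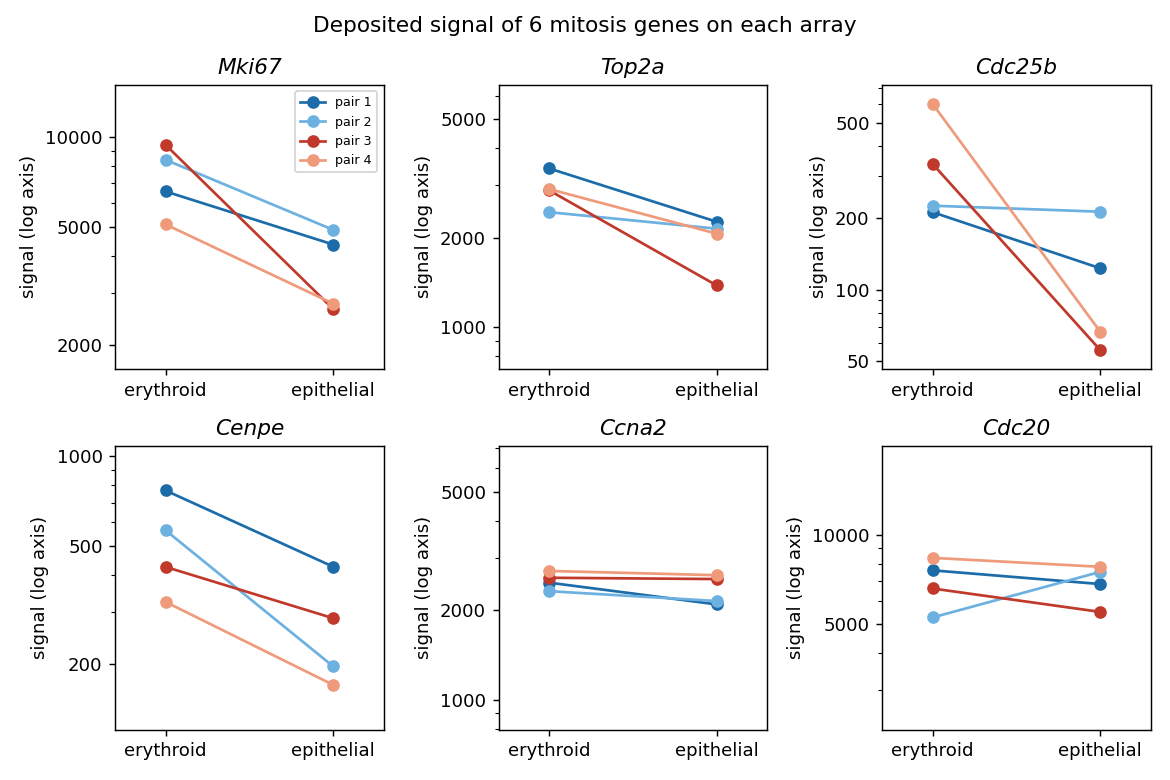
The deposited signal (vertical axis, log scale) of 6 mitosis genes is plotted for the erythroid capture (left) and the epithelial capture (right) of each pair, joined by a line. The lines of Mki67, Top2a, Cdc25b and Cenpe fall to the right in all 4 pairs, while those of Ccna2 are nearly level and that of Cdc20 in pair 2 rises.

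Among genes that drive entry into mitosis, 1 of 8 measured was higher and 0 lower, with a median of 0.16. Of all genes, 6.02% were called higher and 8.87% lower. The gene called was Cdc25b, a phosphatase that takes the brake off the mitotic kinase. Its signal was 210.8, 224.4, 335.9 and 599.0 in the erythroid captures and 122.8, 211.8, 55.8 and 66.7 in the epithelial captures. The erythroid value of pair 1 lay just below the epithelial value of pair 2, so the groups overlapped, and the epithelial value of pair 3 lay below background. The difference was 1.37 ± 0.40 (SE, n = 4 pairs, limma adjusted p = 0.0446), the largest of the 33 genes. It was 2.31 in pairs 3 and 4, against 0.43 in pairs 1 and 2. Without replicate 3 the adjusted p was 0.16 and without replicate 4 it was 0.242. The call was also lost with no filter (0.0845), no pair term (0.0908) or no variance trend (0.108). The related phosphatase Cdc25c had signals of 82.2 to 156.5 in the erythroid captures and 114.1 to 154.3 in the epithelial captures, and a difference of -0.39 ± 0.37 (adjusted p = 0.517).

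The kinase and cyclins at the centre of mitotic entry gave 0 calls. Ccna2, the cyclin of late S phase and early mitosis, had signals of 2477, 2319, 2572 and 2712 in the erythroid captures and 2093, 2148, 2547 and 2624 in the epithelial captures. Its difference was 0.15 ± 0.15, with an interval from -0.18 to 0.49. The other tested probe set of Ccna2 gave 0.37 ± 0.21, with an interval from -0.10 to 0.84 (limma adjusted p = 0.277). That probe set differed by 0.78 in pairs 3 and 4, against -0.04 in pairs 1 and 2. Ccnb2, a B-type cyclin, differed by 0.16 ± 0.22, with an interval from -0.33 to 0.66. Cdk1, the kinase that both cyclins switch on, had signals of 629.1, 818.6, 1985 and 1489 in the erythroid captures and 926.2, 752.5, 2570 and 2179 in the epithelial captures. The erythroid value was the lower one in 3 of 4 pairs, and the difference was -0.31 ± 0.20 (interval -0.76 to 0.13). None of the 3 passed the test (limma adjusted p = 0.332 to 0.674), and a difference beyond 2-fold lay outside all 3 intervals.

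Plk1, a kinase of centrosomes and kinetochores, had signals of 154.7, 213.5, 439.9 and 543.2 in the erythroid captures and 135.9, 55.3, 252.3 and 545.3 in the epithelial captures. Its mean difference of 0.67 ± 0.37 (limma adjusted p = 0.257) came mostly from pair 2, where it was 2.15 against an epithelial signal below background. Aurka, which matures the centrosomes, differed by 0.32 ± 0.23, and Nek2, which parts them, by -0.12 ± 0.25 (adjusted p = 0.395 and 0.785).

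Genes of the spindle checkpoint and activators of the anaphase promoting complex gave 0 limma calls in either direction among 8, with a median of 0.03, and 0 of the 8 were under an unadjusted p of 0.05, against 31.1% of all genes. Bub1, the checkpoint kinase at the kinetochore, had signals of 1670, 1431, 1354 and 1580 in the erythroid captures and 1823, 1446, 1365 and 1468 in the epithelial captures. The groups overlapped, with a difference of 0.02 ± 0.17 and an interval from -0.36 to 0.41. Cdc20, which activates the complex, had signals of 5276 to 8367 in the erythroid captures and 5508 to 7809 in the epithelial captures, and a difference of 0.03 ± 0.16 (interval -0.33 to 0.38). Mad2l1, which holds Cdc20 back until the chromosomes are attached, differed by -0.0020 ± 0.17 over the 4 pairs. Its signals were 6331, 6199, 4347 and 6455 in the erythroid captures and 5116, 4652, 6743 and 7159 in the epithelial captures. Mad2l1 was higher in the erythroid capture in pairs 1 and 2 and lower in pairs 3 and 4.

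Bub1b, which joins Mad2l1 in the checkpoint complex, differed by 0.55 ± 0.27, and was higher in the erythroid capture in 3 of 4 pairs. Bub3, the partner of Bub1, differed by 0.20 ± 0.17 and Ttk, the kinase at the top of the checkpoint, by -0.09 ± 0.22. Ube2c, the enzyme that supplies ubiquitin to the complex, differed by 0.48 ± 0.24, and pair 1 stood apart with 1.37 against 0.03 to 0.35 in the other pairs. Cdca3, an adaptor that helps to destroy an inhibitor of mitotic entry, differed by -0.15 ± 0.19. The limma adjusted p of these 5 genes lay between 0.209 and 0.833.

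Genes of the spindle and its midzone gave 0 calls among 9, with a median of 0.06, and 1 of the 9 was under an unadjusted p of 0.05, a share below the 31.1% of all genes. That was Tpx2, which starts microtubules near chromosomes and activates Aurka. It had signals of 670.8, 672.3, 1043 and 949.6 in the erythroid captures and 603.2, 511.4, 441.4 and 524.2 in the epithelial captures. The groups did not overlap, yet the difference of 0.66 ± 0.24 did not pass the test over all probe sets (SE, n = 4 pairs, limma adjusted p = 0.0945). Its other tested probe set gave 0.12 ± 0.27.

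Kif11, the motor that pushes the spindle poles apart, differed by 0.06 ± 0.21, and Nusap1, which bundles spindle fibres, by 0.39 ± 0.21. Hmmr, a protein of the spindle poles, had signals of 2197, 2002, 2503 and 1919 in the erythroid captures and 2977, 2310, 2653 and 2819 in the epithelial captures. It was lower in the erythroid capture of each pair, with differences from -0.54 to -0.0068, and did not pass the test (-0.27 ± 0.16, adjusted p = 0.301). The other tested probe sets of Hmmr gave -0.08 ± 0.23 and 0.10 ± 0.27, each with both signs among the pairs. Ckap2, which binds spindle fibres, differed by -0.15 ± 0.27. The 4 genes of the midzone and the final cut differed in both directions: Kif23 by 0.33 ± 0.20, its partner Racgap1 by 0.12 ± 0.26, Prc1, which crosslinks the midzone fibres, by -0.16 ± 0.21, and the motor Kif20a by -0.36 ± 0.31. None of the 4 passed the test (limma adjusted p = 0.32 to 0.803).

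Several genes had more than 1 tested probe set. Of the 50 tested probe sets of the 33 genes, 3 were called higher and 1 lower, where 6.19% and 7.69% of all 11449 probe sets were called. The probe set called lower was another one for Cdc20, at -0.95 ± 0.22 (limma adjusted p = 0.0188) and lower in all 4 pairs. The other 2 gave 0.03 ± 0.16 and -0.02 ± 0.19. The brightest of the 3 and the one called lower are of a kind, marked x, that can pick up related transcripts, so the value of Cdc20 is uncertain. The brightest probe set of Incenp is also marked x, so the value of Incenp is uncertain too. The other tested probe set of Incenp gave -0.38 ± 0.55 and lay above background on 2 arrays of each group. A dim probe set of Kif11 gave -0.98 ± 0.59, against 0.06 ± 0.21 and 0.06 ± 0.23 for its other 2. A dim one of Cdca3 gave -0.68 ± 0.48, against -0.15 ± 0.19 for the brightest. The other 8 of the 58 probe sets were too dim to test. They include a second probe set of Top2a and of Nusap1, another of Incenp and 2 of Kif23, all below background on every array.

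**Figure D3:**
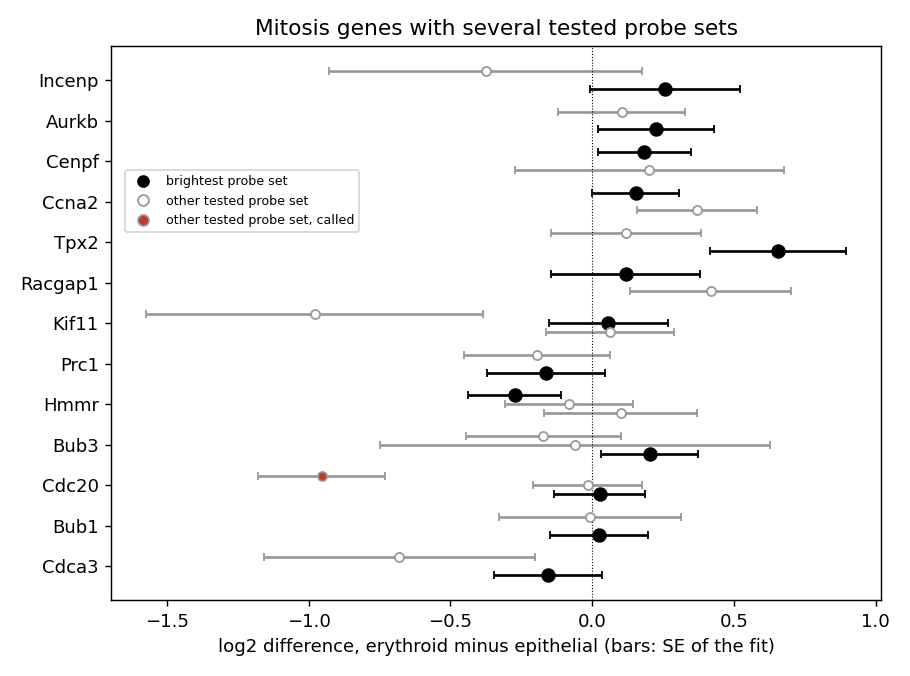
The log2 difference, erythroid minus epithelial (horizontal axis), is plotted with the SE of the fit for each tested probe set of the mitosis genes that have more than 1. Black points are the brightest probe set of a gene, and the red point, a dimmer probe set of Cdc20 at -0.95, is the one called.

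The ratio of 3' to 5' signal for Gapdh, which grows as RNA is shortened, was 7.0 to 17.4 in pairs 3 and 4, against 38.7 to 44.4 in pairs 1 and 2. For Actb it was 7.75 to 13.5 in pairs 3 and 4, against 46.5 to 131 in pairs 1 and 2. The differences between captures were therefore also read within each set. Markers of the captured cells parted more in pairs 3 and 4 as well. The median of red cell markers was 3.13 there, against 1.25 in pairs 1 and 2. That of visceral endoderm markers was -1.83, against -1.07. The parts of RNA quality and of the make-up of the captures in the differences between the sets were not tested. The median of the 33 genes was 0.24 in pairs 3 and 4, against -0.012 in pairs 1 and 2. All genes gave 0.0072 and -0.029. Mki67 differed by 1.45 in pairs 3 and 4, against 0.63 in pairs 1 and 2, and Top2a by 0.89 against 0.38. Cenpe had the smaller value in pairs 3 and 4, with 0.52 against 1.22 in pairs 1 and 2. A limma test of the interaction of cell type and set called 0 of the 33 mitosis genes, against 2% of all genes, and 0 of their 50 tested probe sets, against 1.84% of all probe sets. At an unadjusted p under 0.05 it gave 4 of the 33, near the share of all genes (13.6%): Incenp (1.19 ± 0.33, adjusted p = 0.0807), Cdc25b (1.87 ± 0.61, 0.141), Mki67 (0.81 ± 0.27, 0.147) and Mad2l1 (-0.70 ± 0.24, 0.165), as pairs 3 and 4 minus pairs 1 and 2.

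**Figure D4:**
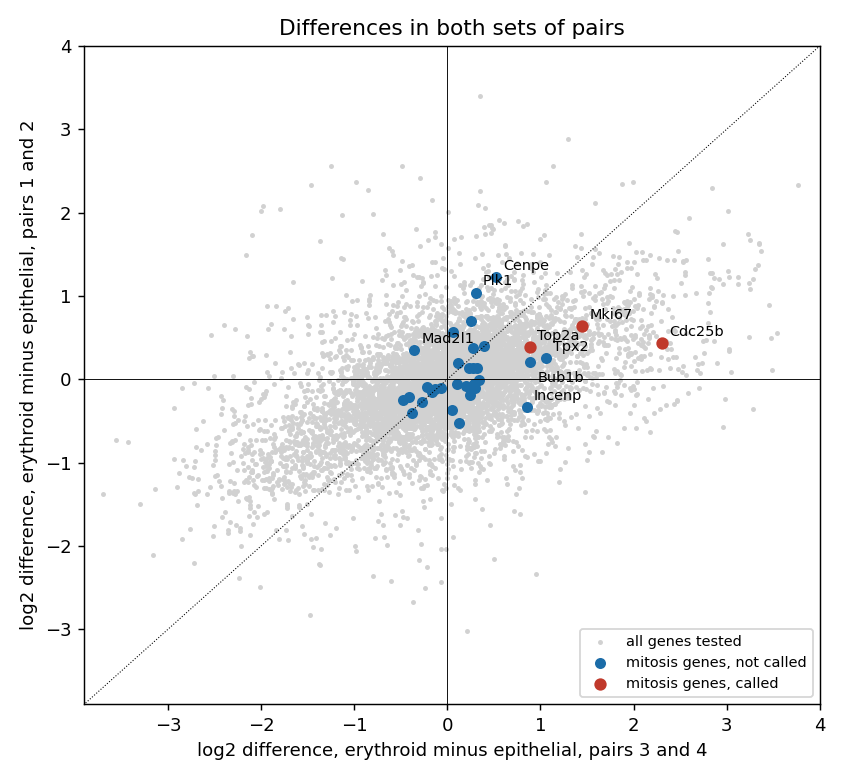
The log2 difference, erythroid minus epithelial, is plotted for pairs 3 and 4 (horizontal axis) against pairs 1 and 2 (vertical axis), with grey points for all genes tested, blue for mitosis genes not called and red for the 3 called. Cdc25b lies at 2.31 and 0.43, far right of the diagonal, and Incenp and Mad2l1 lie on opposite sides of 0 in the 2 sets.

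For some genes the level itself differed between the sets in both kinds of capture. The normalised values of pairs 3 and 4 lay above those of pairs 1 and 2 on all arrays for 8 of the 33 genes, where 9.9% of all genes did so. These were Plk1, Ube2c, Cdk1, Aurka, Racgap1, Kif20a, Cdca3 and Aurkb, by means of 0.48 to 1.63 on the log2 scale. Incenp lay below on all arrays, with a mean difference of -1.0, where 10.1% of all genes did so. Ube2c shows the pattern. Its erythroid signal was 1614 and 2185 in pairs 3 and 4, against 881.4 and 605.4 in pairs 1 and 2. Its epithelial signal was 1318 and 2059 in pairs 3 and 4, against 304.9 and 627.4 in pairs 1 and 2. The part of the RNA quality in these levels was not tested.

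Genes of other steps of division, from 6 lists of 142 genes that share no member with the 33, gave a similar picture. Of 100 tested, the erythroid captures had 6 called higher and 1 lower, close to the 6.02% higher and under the 8.87% lower of all genes, with a median of 0.12. In cohesin and condensin, the rings that hold sister chromosomes together and compact them, 2 of 15 were higher and 0 lower (median 0.28). Stag2, a cohesin subunit, had signals of 2092, 1905, 2665 and 1872 in the erythroid captures and 1337, 957.2, 495.1 and 686.9 in the epithelial captures. The groups did not overlap, and the difference was 1.41 ± 0.28 (SE, n = 4 pairs, limma adjusted p = 0.00821). Smc2, a core subunit of condensin, had signals of 4288 to 6500 in the erythroid captures and 2474 to 3786 in the epithelial captures, and was higher by 0.89 ± 0.20 (limma adjusted p = 0.0155).

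In the anaphase promoting complex 1 of 15 was higher and 0 lower (median 0.25), its largest subunit Anapc1 by 0.76 ± 0.22. Among 24 kinetochore and centromere genes 2 were higher and 0 lower (median -0.03), Mis12 by 1.27 ± 0.35 and Cenpk by 0.74 ± 0.18. Mis12 had epithelial signals of 79.1 to 134.3, near background and below it in pair 3. Its difference ran from 0.22 in pair 1 to 2.07 in pair 3 (limma adjusted p = 0.0382). Among 22 spindle genes 1 was higher and 0 lower (median 0.04). That was Stmn1, which takes microtubules apart, at 8226 to 13593 in the erythroid captures and 5034 to 7279 in the epithelial captures (0.77 ± 0.13, limma adjusted p = 0.00507). Cytokinesis gave 0 limma calls among 9 genes (median 0.080), of which 3 were under an unadjusted p of 0.05, near the 31.1% of all genes. Among 15 genes of mitotic entry 0 were higher and 1 lower (median -0.10). The gene that fell was Mybl2, a transcription factor that acts on late cell cycle genes. It had signals of 237.6, 200.6, 206.9 and 541.7 in the erythroid captures and 356.4, 509.5, 617.8 and 759.4 in the epithelial captures, and it fell by 1.04 ± 0.25 (limma adjusted p = 0.0209). Mybl2 was lower in the erythroid capture of each pair.

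DNA replication, the step before mitosis, was set beside these genes. Of 43 replication genes tested, 4 were called higher in the erythroid captures and 0 lower, with a median of 0.44. The 33 mitosis genes had 3 higher and 0 lower with a median of 0.15. Of all genes, 6.02% were called higher and 8.87% lower. The median of the replication genes was 0.52 in pairs 3 and 4, against 0.12 in pairs 1 and 2. The interaction of cell type and set called 2 of the 43, where it called 2% of all genes. These were Pold1 (1.93 ± 0.45, limma adjusted p = 0.0358) and Mcm4 (0.95 ± 0.23, 0.0434), named after their values were seen. No test of the difference between the lists was made. Pcna, the clamp of the DNA polymerases, had signals of 4867, 4393, 6512 and 7510 in the erythroid captures and 2570, 2368, 3416 and 3930 in the epithelial captures. The groups did not overlap, and Pcna was higher by 0.98 ± 0.14 (SE, n = 4 pairs, limma adjusted p = 0.00222). The other 3 were Rrm1, a subunit of the enzyme that makes DNA building blocks, by 0.94 ± 0.23, Cdc6, which loads the replicative helicase, by 0.86 ± 0.20, and Rfc4, a subunit of the clamp loader, by 0.82 ± 0.17.

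**Figure D5:**
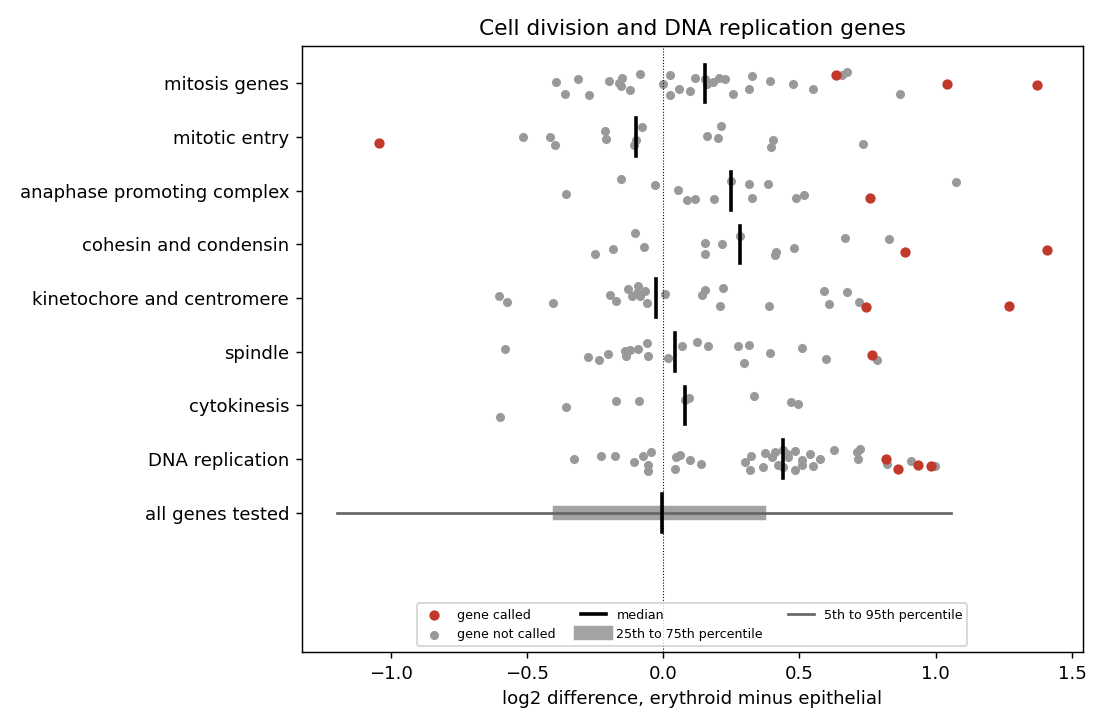
The log2 difference, erythroid minus epithelial (horizontal axis), is plotted for each tested gene of the mitosis list, of 6 other cell division lists and of DNA replication, with a black bar at each median, and for all genes tested as percentiles. Red points are genes called, and the medians run from -0.10 for mitotic entry to 0.44 for DNA replication.

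The labelled cell types were checked against their markers. Of 12 red cell markers tested, 9 were higher in the erythroid captures and 0 lower (median 2.09), and of 15 visceral endoderm markers 13 were lower and 0 higher (median -1.50). Neither set of captures was free of markers of the other. Among markers not called, Hbb-y differed by 0.07 ± 0.07, Hbb-bh1 by -0.11 ± 0.07, Afp by -0.16 ± 0.09 and Ttr by -0.20 ± 0.07. These lay among the brightest signals of the arrays, where quantile normalisation can narrow a difference. In pair 3 the deposited signals of Hbb-y were 38335 (erythroid) and 30611 (epithelial), and its normalised difference was 0. These values therefore do not show equal levels of these RNAs in the captures. Of 13 red cell markers measured, 12 lay above background on all erythroid arrays and 10 on all epithelial arrays. Of 15 endoderm markers, 14 did so on the erythroid and all 15 on the epithelial arrays. Of all 7191 genes tested, 5890 did so on the erythroid and 5853 on the epithelial arrays. Of 11 mesenchyme and mesothelium markers tested, 7 were higher and 0 lower. The summed signal of all 12 was 44285 to 61982 in the erythroid captures of pairs 3 and 4 and 39820 to 50587 in those of pairs 1 and 2. In the epithelial captures it was 8960 to 13733 in pairs 3 and 4 and 32780 to 35497 in pairs 1 and 2, with Wt1 below background on all 4 epithelial arrays. Endothelial markers summed to 1098 to 2468 in the erythroid captures and 545.1 to 1118 in the epithelial captures over 9 genes, with Tie1 and Pecam1 below background on all arrays and Emcn on the epithelial ones. Markers of megakaryocytes and platelets summed to 4994 to 18577 in the erythroid captures and 1676 to 2718 in the epithelial captures over 6 genes, with Gp9 below background on all arrays and Gp1bb on the epithelial ones. Leukocyte markers summed to 1113 to 1889 in the erythroid and 762.2 to 1172 in the epithelial captures over 8 genes, with Cd68 and Itgam below background on all arrays and Cd14 on the erythroid ones. The erythroid and epithelial sums did not overlap for mesenchyme and for megakaryocytes and platelets, and overlapped for endothelium and leukocytes. Of 6 endothelial markers tested, 1 was higher (Tek by 1.35 ± 0.29) and 0 lower. Of 5 megakaryocyte and platelet markers, 2 were higher, Pf4 by 2.16 ± 0.34 and Clec1b by 2.01 ± 0.31, and 0 lower. Of 3 leukocyte markers, 0 were called. Across all genes tested, 6.02% were called higher and 8.87% lower. Pf4 alone had signals of 4158 to 15006 in the erythroid captures. The part of these cell types in the differences of Mki67, Top2a and Cdc25b was not tested.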

How the data were processed

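Gene expression was measured on 1 array for each of 8 samples. The authors deposited an intensity (MAS5 signal, linear) per probe set and array; GCOS, MAS5 and affy are named in the submitters' processing notes (versions not given in the sources used here). On each array the mean after trimming 2% at each end was 500. Of 22626 probe sets that are not controls, 20380 were annotated to 1 gene, and symbols were updated through gene identifiers for 20351.

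Before log2, 8.14 was added to each value, which is the 10th percentile of the whole table. The array medians then spanned 0.59, above a limit of 0.5, so the arrays were quantile normalised. Probe sets that reached the array median on at least 4 of 8 arrays were tested (11449, in 7191 genes), in R 4.3.3 with limma 3.58.1 (lmFit, eBayes with a variance trend), with pair and cell type as terms and 3 residual degrees of freedom, two-sided. All 33 genes measured passed that filter. The background level of an array is the 95th percentile of 117 probe sets for genes of smell and taste receptors, pheromone receptors, beta-defensins and keratin-associated proteins. The number of arrays limits the precision. Median signals of the arrays were 81.6 to 127.1.

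The pairing comes from the labels: the 2 captures of a pair share slides. After the group means were removed, the captures of a pair correlated at 0.437, 0.343, 0.315 and 0.535. Captures of different pairs correlated at 0.28 to 0.353 within pairs 1 and 2 or pairs 3 and 4, so pair and set are not told apart by this check. The members and lists were chosen with earlier results of these data known. All 33 genes are given; of the other lists, called genes are named, at most the 3 with the largest change in each, except that all 4 replication genes are named, of which Rfc4 falls outside the rule, as do Pold1 and Mcm4. The erythroid against epithelial fit was tested in 5 simulated runs, each with 200 of 11449 probe sets changed. It called 54% of changes of 2 on the log2 scale, 13% of changes of 1 and 0.906% of changes of 0.5. In the data 709 probe sets were called higher and 881 lower, more than the 200 changed in a run. With fewer changes the adjusted p is stricter, so these shares can understate what the fit calls in the data. Alternatives were other scalings, offsets, filters, models, pairs and probe sets per gene. Motifs were searched with Python 3.11.15 in RefSeq promoters.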

Additional observations from a re-analysis of the deposited data

How the results depend on the processing

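In each of the 17 alternatives, 0 mitosis genes were called lower, and 0 were called in the interaction under the 8 settings tried for it. The count called higher was 3, and it was 1 without the pair term (replicate block), 0 without a variance trend, 1 without s, x and a probe sets (which leaves 22 of the 33 genes), 6 in pairs 3 and 4 alone, and 1 to 3 with 1 pair left out (1 without replicate 3 and 1 without replicate 4). The median of 0.15 became -0.047 with arrays centred on the median (which moved all genes from -0.01 to -0.14), 0.10 with centring on the 75th percentile, -0.012 in pairs 1 and 2, 0.24 in pairs 3 and 4, 0.10 with the mean of a gene's probe sets and 0.12 to 0.18 with 1 pair left out. The stricter filter leaves 29 genes. Of 546 member values under alternatives, 480 kept direction and side of the threshold, 16 lost the call, 9 gained one and 41 changed sign, 0 of them called. The values that changed sign follow. With arrays centred on the median they were Birc5 -0.13, Bub1 -0.20, Bub3 -0.039, Ccna2 -0.082, Ccnb2 -0.034, Cdc20 -0.18, Cenpf -0.047 and Kif11 -0.13. In pairs 1 and 2 they were Birc5 -0.10, Bub1 -0.053, Ccnb2 -0.012, Cdc20 -0.19, Incenp -0.34, Kif11 -0.081, Mad2l1 0.35 and Racgap1 -0.054. With the deposited scaling they were Bub1 -0.012 and Nek2 0.0038. With centring on the 75th percentile they were Bub1 -0.046 and Cdc20 -0.033. With the mean of a gene's probe sets they were Bub3 -0.0099, Cdc20 -0.31, Incenp -0.060 and Kif11 -0.29. Without s, x and a probe sets they were Bub3 -0.17, Cdc20 -0.016 and Incenp -0.38. In pairs 3 and 4 they were Cenpa 0.13 and Prc1 0.049. With 1 pair left out, the range was Birc5 from -0.14 to 0.27, Bub1 from -0.022 to 0.069, Ccnb2 from -0.0016 to 0.33, Cdc20 from -0.065 to 0.24, Cenpa from -0.41 to 9.9e-05, Incenp from -0.13 to 0.52, Kif11 from -0.073 to 0.14, Mad2l1 from -0.13 to 0.18 and Ttk from -0.20 to 0.015.

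Over all probe sets 709 were higher and 881 lower. Median centring gave 455 higher, no pair term 160 and 285, no variance trend 179 and 339, pairs 1 and 2 543 lower, pairs 3 and 4 1402 and 1457, omission of s, x and a probe sets 376 and 520, and omission of 1 pair 202 to 690 and 332 to 829. The counts of the other lists and of the interaction were added after seeing the data. The 6 other division lists had 6 higher and 1 lower; these became 2 and 3 with median centring, 2 and 0 without the pair term (replicate block), 0 and 0 without a variance trend, 2 and 0 for pairs 1 and 2, then 21 and 6 for pairs 3 and 4, with 2 lower under the deposited scaling and under the stricter filter, and 2 to 7 higher and 0 to 1 lower with 1 pair left out (2 and 0 without replicate 3 or without replicate 4). DNA replication had 4 higher, with 1 under median centring, 0 without the pair term, 1 without a variance trend, 15 in pairs 3 and 4 and 1 to 8 with 1 pair left out (8 without replicate 2, 2 without replicate 3, 1 without replicate 4). The cause of these changes was not tested, except that fewer probe sets or pairs enter where some are left out.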
